A study of Mus musculus with 12 samples.

Results

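The data described here are the response of fat to a high-fat diet (HFD) in mice whose macrophages lack connexin 43 (Cx43-MKO, here KO). They are 6 of the 12 libraries of RNA sequenced from gonadal white adipose tissue (gWAT), the visceral fat beside the testes. The comparison sets KO-HFD libraries 1 to 3 against KO-NCD libraries 1 to 3, where NCD is normal chow diet, and covers 16352 expressed genes. KO mice carried the labels Gja1floxed and Csf1r creER, were male C57BL/6 animals, and were fed for 8 weeks from an age of 6 weeks. Tamoxifen, which switches on the recombinase, is placed in the labels' protocol for 5 days in weeks 1 and 5 of feeding. The treatment labels list it for KO samples alone, while the paper's methods give it to both genotypes, in a course that ended before the experiments began, so its timing relative to the diet is not settled by the sources. WT mice, used here only beside the KO values, were labelled Gja1floxed and had no CreER. Both KO diet groups share the floxed allele, the CreER transgene and tamoxifen. Csf1r drives CreER in macrophages and other cells of the monocyte lineage. The transgenic CreER mice derive from FVB, so background genome can differ between KO and WT, but both KO groups carry the transgene. Each library was described as a biological replicate, and the number after a group's name is the one in the deposited table (1, 2 and 4 in WT-HFD).

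Adipocytes store dietary fat as triglyceride, make fatty acids from glucose when carbohydrate is plentiful, and lower that synthesis when fat is eaten. When a fat depot grows, its adipocytes enlarge, matrix is remodelled, and in lean-to-obese transitions macrophages usually enter and gather around dying adipocytes. Connexin 43, encoded by Gja1, forms gap junctions and hemichannels that release ATP, which is sensed by purinergic receptors such as P2RX7 and P2RX4. The comparison asks which genes of fat respond to HFD when macrophages cannot make this channel.

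Total counts were 47185990, 73167755 and 62373747 in KO-NCD 1 to 3 and 64295449, 55029345 and 54047377 in KO-HFD 1 to 3. Levels are in CPM, the count of a gene relative to the TMM-normalized size of its library. The 10 adipocyte markers summed to between 31742 and 43951 CPM in KO-NCD and between 33041 and 37878 CPM in KO-HFD, and none was at 0, so the tissue label held in all 6 libraries. In whole tissue, fewer cells of a type and less RNA per cell cannot be told apart. The number 2 libraries of both diets stood apart from the other KO libraries. Along the first principal component of the 6 libraries (54% of the variance), KO-NCD 2 and KO-HFD 2 scored 70.3 and 76.0 and KO-NCD 1 scored -100.0. The other 3 libraries lay between -24.6 and 2.96. Of the first 3 components, the second (19.1%) was the 1 along which diet separated without overlap, where KO-NCD scored 13 to 41.8 and KO-HFD -48.6 to 1.29. Summed ciliated epithelium genes were at 138 CPM in KO-NCD 2 and 81.2 CPM in KO-HFD 2, against 4.21 to 14.7 CPM in the other KO libraries. The secreted liver protein gene Apoa1 was at 40.5 and 104 CPM in the number 2 libraries and at 0 CPM in KO-NCD 1, 3.54 in KO-NCD 3, 11.7 in KO-HFD 1 and 22.2 in KO-HFD 3. The part of these libraries in the results was measured by leaving both number 2 libraries out.

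**Figure D1:**
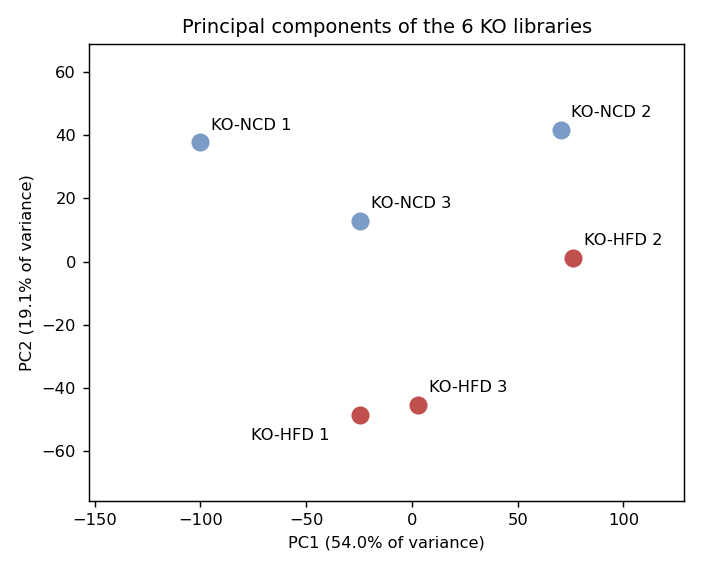
Scores of the 6 KO libraries on the first (x axis) and second (y axis) principal component of log2 CPM, with the percentage of variance on each axis. On the second component the 3 KO-NCD libraries (blue) score 13 to 41.8 and the 3 KO-HFD libraries (red) -48.6 to 1.29, while the first component sets KO-NCD 2 and KO-HFD 2 apart from KO-NCD 1.

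HFD changed 5 genes in KO fat at an adjusted p under 0.05 in edgeR's quasi-likelihood test, which is 0.0306% of the genes tested. Unc79, Ret, Sfrp5 and Prelp rose (4 genes, 0.0245%) and Ppp1r3c fell (1 gene, 0.00612%). At an unadjusted p under 0.05, 1531 genes (9.36%) passed. DESeq2's Wald test called 316 genes (1.9% of 16630), 215 higher (1.29%) and 101 lower (0.607%), all 5 genes among them. No label says what the replicate number marks, and its use as a pairing was chosen from correlations between these same libraries. Calls made with the number as a block are thus no independent support, here and below. With the replicate number as a block, edgeR called 12 genes (0.0734%), 11 higher (0.0673%) and 1 lower. Unc79, Ret and Ppp1r3c were among these 12, Sfrp5 and Prelp were not (adjusted p of 0.0555 and 0.0556), and the other 9 were Ccn5, Bmp3, Vgll3, Klf14, Fbln5, Rbm28, 9430037G07Rik, 1700047G03Rik and Gm7694, the last 4 outside the rule for named genes. No gene passed in edgeR when the 6 KO libraries were fitted without the WT libraries, although 1645 genes then had an unadjusted p under 0.05 and DESeq2 called 445. Leaving out a single library moved the count from 0 (without WT-NCD 1, with 1598 genes at an unadjusted p under 0.05) to 36 (without WT-HFD 1). It was 8 without KO-NCD 1, 1 without KO-HFD 1 or WT-NCD 3, and 3 without any of the other libraries. Unc79 was called in all of these except without KO-HFD 1, where 9430037G07Rik alone passed (named after its values were seen), and without WT-NCD 1.

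A wider set followed the study's thresholds, which ask for more than a 1.5-fold difference at p below 0.05. The paper does not say whether that p was adjusted, and here it was taken as unadjusted. On that reading the thresholds were met by 684 genes (4.18%), 448 higher (2.74%) and 236 lower (1.44%) in KO-HFD. They are called past the study thresholds below, with no correction for the number of genes. DESeq2's Wald test put 811 genes past the same thresholds. The paper, which also used DESeq2, reports far fewer genes affected by HFD in KO mice. The reason for that gap was not tested. The 2.74% higher and 1.44% lower are the shares of all genes to set beside the count of any list. The lists were chosen with earlier results of these data known, so a list above these shares is no independent support. In 1394 genes (8.52%) all 3 KO-HFD libraries lay above all 3 KO-NCD libraries, and in 1463 genes (8.95%) all lay below. The median gene had an absolute log2 fold change of 0.185, and 1114 genes (6.81%) differed by more than 2-fold. In WT mice the same diets gave a median of 0.455, with 4190 genes (25.6%) over 2-fold and 5881 genes (36.0%) at an adjusted p under 0.05. The 95% interval of the median gene reached to either side by 0.448 on the log2 scale in KO and 0.45 in WT. Both intervals use 1 estimate of spread per gene shared by the 4 groups, so their likeness does not compare the genotypes. The median SD of log2 CPM over genes was 0.187 in KO-NCD, 0.216 in KO-HFD, 0.224 in WT-NCD and 0.23 in WT-HFD. For 10777 genes (65.9%) the KO interval lay wholly within a 2-fold change in either direction. The diet response itself differed between genotypes in 2893 genes (17.7%, edgeR interaction test), with a more positive log2 change in KO in 1491 (9.12%) and a more negative one in 1402 (8.57%). Genes of the seminal vesicle, a gland beside this fat, summed to between 22054 and 119171 CPM in WT-NCD and genes of the epididymal epithelium to between 813 and 4306 CPM, while neither list reached 1 CPM in any WT-HFD library. The part of this tissue in the WT and interaction counts was not tested.

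KO and WT contrasts share no library, but their tests, and the interaction test, share each gene's estimate of spread. A gene with a small estimate passes each of these tests more easily. The shares of chosen genes that passed in WT may thus exceed those of all genes for that reason too, and its part was not tested. Of the 448 genes higher in KO-HFD, 345 (77.0%) had a positive log2 fold change in WT and 201 (44.9%) passed the WT test as higher, against 49.8% and 17.6% of all genes tested. Of the 236 lower genes, 170 (72.0%) were negative in WT and 124 (52.5%) passed there as lower, against 50% and 18.4% of all genes. The interaction test was passed by 91 (20.3%) of the higher and 81 (34.3%) of the lower genes.

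Unc79 encodes an auxiliary subunit of the NALCN sodium leak channel, best known from neurons. It was at 0.748, 1.03 and 0.483 CPM in KO-NCD 1 to 3 and at 6.34, 8.16 and 5.91 CPM in KO-HFD 1 to 3. The groups lay far apart. Its fold change was 8.98, a log2 change of 3.17 ± 0.33 (SE, n = 3 and 3, adjusted p = 0.0239), and it was 3.44 in WT, with no detectable difference between genotypes (interaction adjusted p = 0.711). The gene lies on chromosome 12 (GRCm38.p6, 102947383 to 103184228). Of 3 tested genes of the NALCN complex, Unc79 alone passed the study thresholds. The pore subunit Nalcn was at 0, 1.65 and 0.826 CPM in KO-NCD and 1.46, 2.25 and 0.431 CPM in KO-HFD, with overlapping groups.

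Ret encodes the receptor tyrosine kinase for ligands of the GDNF family and lies on chromosome 6 (118151748 to 118197744). It was at 17.6, 32.4 and 20.4 CPM in KO-NCD and at 83.5, 113 and 87.1 CPM in KO-HFD. The lowest HFD library was thus above the highest chow library. The log2 change was 2.01 ± 0.24 (SE, n = 3 and 3, adjusted p = 0.0304), a 4.02-fold rise. In WT, Ret was at 11.2 to 16.8 CPM on NCD and 16.1 to 19.7 CPM on HFD, a log2 change of 0.45 that did not pass (adjusted p = 0.16). The diet response was larger in KO by 1.55 (interaction adjusted p = 0.0116). Of 8 tested genes of RET, its co-receptors and its ligands, Ret was higher and the co-receptor Gfra4 lower past the study thresholds. Gfra4 was at 4.61, 7.49 and 5.0 CPM in KO-NCD and 2.71, 2.9 and 2.93 CPM in KO-HFD, without overlap.

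Sfrp5 is a secreted Wnt antagonist made by adipocytes of growing fat, on chromosome 19 (42197971 to 42202252). It was at 30.3, 19.8 and 25.2 CPM in KO-NCD and at 264, 295 and 161 CPM in KO-HFD. Every HFD library exceeded every chow library several-fold, and the log2 change was 3.26 ± 0.44 (SE, n = 3 and 3, adjusted p = 0.04997). In WT the change was 6.61, from 2.89 to 4.09 CPM on NCD to between 177 and 597 CPM on HFD. The HFD levels of the genotypes overlapped, while the chow level was higher in each KO library than in any WT library, and the diet response was smaller in KO (-3.35 for KO minus WT on the log2 scale, interaction adjusted p = 0.00588).

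Some other Wnt modulators were higher too. Of 40 tested Wnt ligands, receptors and antagonists, 7 were higher and 0 lower past the study thresholds, against 2.74% and 1.44% of all genes, and the list's median log2 change was 0.15. In 5 genes the KO groups did not overlap with HFD above, and in 2 with HFD below, against 8.52% and 8.95% of all genes. Ccn5, a secreted matricellular protein that modulates Wnt signalling, was at 13.3, 5.71 and 4.02 CPM in KO-NCD and 73.2, 42.6 and 51.9 CPM in KO-HFD. Its log2 change of 2.87 missed the threshold (adjusted p = 0.0673) and passed with the replicate block (3.01, adjusted p = 0.0108). In WT, Ccn5 rose by 5.41, and the response differed between genotypes (interaction adjusted p = 0.0133). Nkd1, an intracellular inhibitor of Wnt signalling, was at 15.9 to 19.5 CPM in KO-NCD and 32.2 to 56.0 CPM in KO-HFD, without overlap. Sfrp4, a further secreted antagonist, ran from 1.66 to 2.93 CPM and from 2.81 to 9.47 CPM, with overlapping groups.

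**Figure D2:**
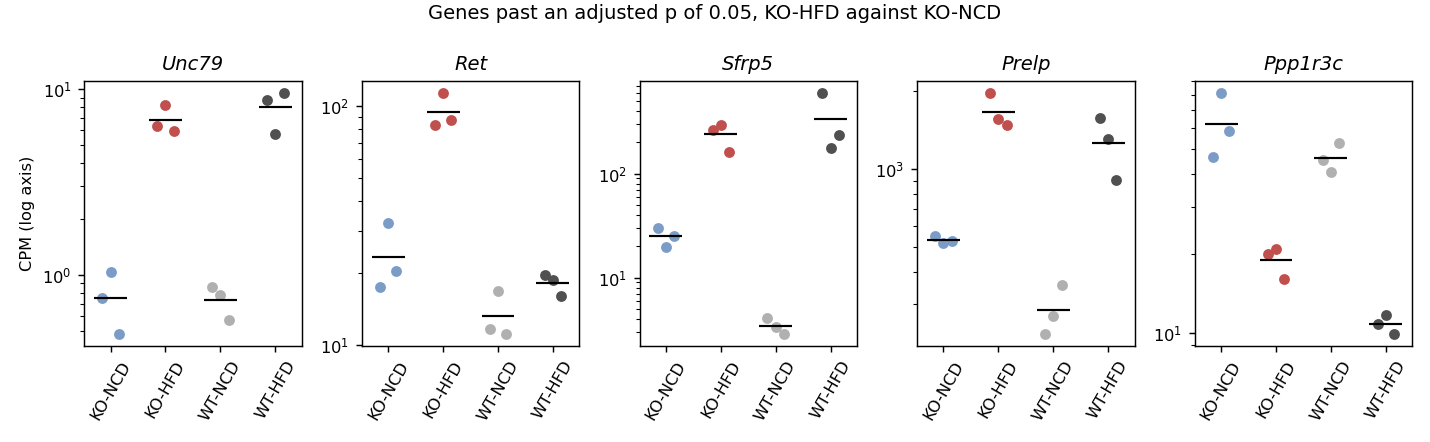
CPM on a log axis of the 5 genes past an adjusted p of 0.05, per library (points) with group means (lines, n = 3), for the KO groups in colour and the WT groups in grey. The KO groups do not overlap in any panel, and Ret is at 16.1 to 19.7 CPM in WT-HFD against 83.5 to 113 CPM in KO-HFD.

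Of 8 tested genes that follow the expansion of fat depots, 5 were higher and 0 lower past the study thresholds, against 2.74% and 1.44% of all genes, and 6 did not overlap with HFD above, against 8.52%. Sfrp5 was the 1 member at an adjusted p under 0.05 in edgeR. The median log2 change was 1.29 in KO and 0.73 in WT, and 2 members had a negative change in KO. Mest, an imprinted gene whose level in fat follows adipocyte enlargement, was at 108, 80.4 and 84.1 CPM in KO-NCD and 458, 371 and 571 CPM in KO-HFD. All HFD libraries lay more than 3-fold above all chow libraries, at a log2 change of 2.36 ± 0.39 (SE, adjusted p = 0.0979). Mest passed in 3 of 21 alternative settings, among them DESeq2 (adjusted p = 2.1e-07) and edgeR without WT-HFD 1 (adjusted p = 0.00388). In WT, Mest was at 156 to 174 CPM on NCD and 131 to 465 CPM on HFD, and those groups overlapped. Bmp3, a ligand of the BMP family, was at 57.4, 23.8 and 32.0 CPM in KO-NCD and 149.8, 101 and 82.3 CPM in KO-HFD. Its log2 change of 1.56 (adjusted p = 0.163) passed with the replicate block (1.61, adjusted p = 0.0358) and in DESeq2 (adjusted p = 0.000274), and was smaller than the 3.08 in WT (interaction adjusted p = 0.0394). Peg3, an imprinted zinc finger gene, was at 16.6 to 18.2 CPM in KO-NCD and 49.0, 114 and 32.6 CPM in KO-HFD. Npr3, the natriuretic peptide clearance receptor, ran from 1068 to 1172 CPM and from 1523 to 1660 CPM, without overlap but with a log2 change of only 0.47.

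Lep encodes leptin, the hormone that reports fat mass. It was at 831, 967 and 1260 CPM in KO-NCD and 2271, 1858 and 2057 CPM in KO-HFD. The groups did not overlap, and the log2 change of 1.02 (95% interval 0.02 to 2.01) had an adjusted p of 0.521. In WT, Lep was at 902 to 957 CPM on NCD and at 3126, 945 and 691 CPM in WT-HFD 1, 2 and 4, a log2 change of 0.78 that did not pass (adjusted p = 0.203) and whose only high library was WT-HFD 1. Without that library the KO change was 1.02 with an adjusted p of 0.063. In 1 of 21 alternative settings, DESeq2 on the KO libraries alone, Lep passed (adjusted p = 4.85e-06). Among 28 tested adipokines, 6 were higher and 4 lower past the study thresholds, against 2.74% and 1.44% of all genes. Their median was 0.32 in both genotypes. Angptl4, which inhibits lipoprotein lipase, was at 229.8, 109 and 117 CPM in KO-NCD and 418, 319 and 345 CPM in KO-HFD. Angptl8, a partner protein induced by feeding and insulin, moved the other way, from 28.3, 89.0 and 32.2 CPM to 14.2, 13.6 and 12.3 CPM. Neither set of KO groups overlapped, and the adjusted p was 0.172 for Angptl4 and 0.163 for Angptl8.

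Prelp encodes a small leucine-rich proteoglycan that anchors basement membranes to collagen, on chromosome 1 (133910304 to 133930102). It was at 551, 519 and 529 CPM in KO-NCD and 1965, 1561 and 1476 CPM in KO-HFD. The chow libraries were close together (SD 16.4 CPM) and every HFD library was well above them, with a log2 change of 1.65 ± 0.22 (SE, n = 3 and 3, adjusted p = 0.04997). In WT the change was 2.15 (interaction adjusted p = 0.288). Of 12 small leucine-rich proteoglycans, 3 were higher and 1 lower past the study thresholds, against 2.74% and 1.44% of all genes. Biglycan, encoded by Bgn, ran from 287 to 394 CPM in KO-NCD and from 398 to 656 CPM in KO-HFD, a log2 change of 0.77 that was smaller than the 1.76 in WT (interaction adjusted p = 0.0359).

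Of 37 genes of matrix cross-linking and turnover, 9 were higher and 1 lower past the study thresholds, against 2.74% and 1.44% of all genes, and 0 passed an adjusted p of 0.05 in edgeR (7 in DESeq2). A positive log2 change was fitted for 33, against 48.1% of all genes, and the median was 0.39 in KO and 1.16 in WT. Without the number 2 libraries these were 9 and 0, at a median of 0.46. Fbln5, which assembles elastic fibres, was at 75.1, 77.3 and 68.3 CPM in KO-NCD and 173, 138 and 109 CPM in KO-HFD, without overlap. Its log2 change of 0.93 (adjusted p = 0.0882, and 0.0395 with the replicate block) was smaller than the 1.73 in WT (interaction adjusted p = 0.0232). Thbs2, a matricellular thrombospondin, was at 49.6 to 80.3 CPM in KO-NCD and at 154, 360.2 and 137 CPM in KO-HFD. Of 26 collagen genes, 3 were higher and 0 lower past the study thresholds, 8 did not overlap with HFD above (8.52% of all genes), and the median was 0.30. Col12a1, a fibril-associated collagen, was at 3.92, 5.5 and 2.69 CPM in KO-NCD and 20.9, 11.2 and 12.6 CPM in KO-HFD. Col16a1 of the same class was at 18.9, 24.2 and 25.0 CPM and at 62.1, 37.4 and 54.7 CPM, a log2 change of 1.18 that was smaller than the 2.2 in WT (interaction adjusted p = 0.0449). The summed progenitor and fibroblast markers, whose cells make most of this matrix, overlapped between the diets, at 3961 to 5136 CPM and 3810 to 5605 CPM.

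Of 36 genes of TGF-beta and BMP signalling, 6 were higher and 0 lower past the study thresholds, against 2.74% and 1.44% of all genes. The median was 0.11. Feedback inhibitors of the pathway were among the 6 genes. Smad7 was at 15.2, 14 and 15.5 CPM in KO-NCD and 21.2, 25.0 and 25.0 CPM in KO-HFD, and Smad6 was at 8.03 to 13.1 CPM and 18.9 to 24.0 CPM. Fstl3, a secreted inhibitor of activin, ran from 11.7 to 16.8 CPM and from 23.2 to 24.4 CPM. None of the 3 genes overlapped between the diets, and the adjusted p lay between 0.12 and 0.245. The change of Smad7 was 0.67 in KO and 0.06 in WT (interaction adjusted p = 0.0383). Pmepa1, a transmembrane inhibitor of TGF-beta signalling outside that list, was at 46.0, 71.2 and 77.2 CPM in KO-NCD and 205, 163 and 310.4 CPM in KO-HFD, a log2 change of 1.80 ± 0.29 (SE, adjusted p = 0.0947). In WT it fell by 0.96 (adjusted p = 0.0225), and the difference of 2.76 passed the interaction test (adjusted p = 0.00343).

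The remaining genes of smallest p among those higher without overlap were Vgll3, Klf14, Nedd9, Dclk1 and Plekhg6. Vgll3, a cofactor of TEAD transcription factors, was at 18.5 to 26.7 CPM in KO-NCD and 54.9 to 84.2 CPM in KO-HFD. Klf14, an imprinted transcription factor, ran from 1.95 to 4.25 CPM and from 10.2 to 14 CPM. Both missed the threshold (adjusted p = 0.0615 and 0.0825) and passed with the replicate block (adjusted p = 0.0395 for each). The adhesion scaffold Nedd9 was at 41.3 to 48.4 CPM and 79.2 to 84.7 CPM, the microtubule-associated kinase Dclk1 at 15.3 to 19.5 CPM and 28.6 to 34.9 CPM, and Plekhg6, a guanine nucleotide exchange factor, at 4.02 to 6.57 CPM and 17.0 to 23.1 CPM.

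**Figure D3:**
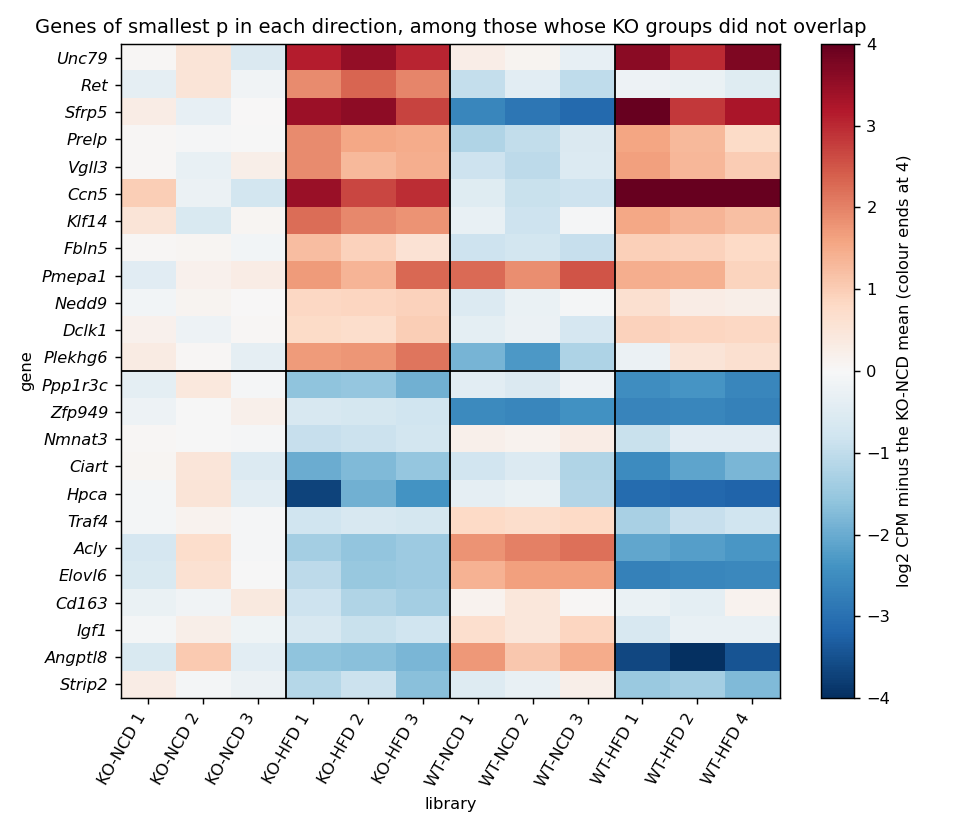
Log2 CPM minus the KO-NCD mean (colour) of the 12 genes higher and 12 genes lower in KO-HFD with the smallest p among those past the study thresholds without overlap, in each of the 12 libraries. Within KO the diets separate in every row by construction of the choice, and Ret and Pmepa1 differ from WT in their response.

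Ppp1r3c, the 1 gene that fell, encodes a subunit that brings protein phosphatase 1 to glycogen and favours its synthesis. It lies on chromosome 19 (36731731 to 36736604). It was at 46.4, 81.3 and 58.5 CPM in KO-NCD and 19.9, 20.8 and 16.0 CPM in KO-HFD. The highest HFD library was well under the lowest chow library, at a log2 change of -1.71 ± 0.20 (SE, n = 3 and 3, adjusted p = 0.0273). In WT the change was -2.1 (interaction adjusted p = 0.358). Of 28 tested genes of glycogen metabolism, 1 was higher and 2 lower past the study thresholds, against 2.74% and 1.44% of all genes. In 5 the KO groups did not overlap with HFD below, against 8.95%. Gbe1, the branching enzyme, was at 89.5, 169 and 125 CPM in KO-NCD and 84.5, 75.7 and 86.9 CPM in KO-HFD. Gys1, a glycogen synthase, was at 141 to 204 CPM and 104 to 139 CPM. Both responses were weaker than in WT, by 2.13 for Gbe1 (interaction adjusted p = 0.00323) and 1.36 for Gys1 (0.00503). Stbd1, which tethers glycogen to membranes, was higher, at 5.5 to 8.1 CPM and 10.8 to 20.8 CPM.

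Genes of fatty acid synthesis were lower in part. Of 25 tested, 11 were lower and 0 higher past the study thresholds, against 1.44% and 2.74% of all genes. In 10 the KO groups did not overlap with HFD below, against 8.95%. An adjusted p of 0.05 was passed by 0 in edgeR (5 in DESeq2). The median log2 change was -0.56 in KO and -2.97 in WT. The response differed between genotypes in 18 of the 25, against 17.7% of all genes. Acly, which makes cytosolic acetyl-CoA from citrate, was at 553, 1444 and 858 CPM in KO-NCD and 347, 295 and 319.6 CPM in KO-HFD. The groups did not overlap, the highest chow value was that of KO-NCD 2, and the log2 change was -1.57 ± 0.28 (SE, adjusted p = 0.12) against -4.22 in WT. Without the number 2 libraries it was -1.08. Acaca, which makes malonyl-CoA, was at 627, 1488 and 871 CPM and at 331, 343 and 401 CPM. Elovl6, which lengthens palmitate, was at 44.3, 103 and 65.5 CPM and at 32.7, 23.5 and 24.6 CPM, and Aacs, which activates acetoacetate for lipid synthesis, at 279.9, 409 and 324 CPM and at 168, 152 and 144 CPM. In each of these 4 genes KO-NCD 2 was the highest and KO-NCD 1 the lowest chow library. Leaving out both number 2 libraries gave 8 lower genes of 25 and a median of -0.32. The interaction adjusted p lay between 0.00282 and 0.00432 for the 4 enzymes. All 4 were lower in every KO-NCD library than in any WT-NCD library, where Acly was at 3044 to 4044 CPM. On HFD all 4 were higher in every KO library than in any WT library, where Acly was at 174 to 208 CPM.

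Not every lipogenic gene was lower. Scd1, the most abundant gene of the list, makes monounsaturated fatty acids and was at 16060, 22606 and 25696 CPM in KO-NCD and 23136, 33708 and 34836 CPM in KO-HFD. The groups overlapped, with a log2 change of 0.51 (95% interval -0.11 to 1.13). In WT it fell by 2.74, and the responses differed (interaction adjusted p = 0.00282). Srebf1, a transcription factor that induces these enzymes, was at 363, 692 and 552 CPM and at 296, 357 and 338 CPM, without overlap and with a change of -0.7. Of 24 genes of cholesterol synthesis, 6 were lower and 1 higher past the study thresholds, against 1.44% and 2.74% of all genes. Their median was -0.33. Idi1 (40.4 to 59.5 CPM against 28.2 to 38.3 CPM) and Nsdhl (43.4 to 75.5 CPM against 32.1 to 39.3 CPM) were lower, and Hmgcs1, an early enzyme of the pathway, was higher (152 to 205 CPM against 296 to 308 CPM). None of these 3 enzymes overlapped between the diets.

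Of 17 genes of triglyceride assembly, 2 were higher and 3 lower past the study thresholds. Mogat2, which acylates monoacylglycerol, was at 5.33 to 8.58 CPM in KO-NCD and 33.6, 11.6 and 22.3 CPM in KO-HFD, and its response was higher by 2.67 than in WT (interaction adjusted p = 0.024). Pck1, which supplies glycerol for triglyceride in fat, was at 316, 486 and 331 CPM and at 769.9, 679.7 and 997 CPM, without overlap. Of 17 genes of fatty acid uptake and binding, 2 were higher and 4 lower. Of 18 lipolysis genes, 1 was higher, and of 25 genes of fatty acid oxidation, 0 passed in either direction.

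Mitochondrial genes stayed close to their chow levels. Of 28 subunits and factors of oxidative phosphorylation, 1 was higher and 0 lower past the study thresholds. The median log2 change was -0.04 in KO and -1.09 in WT. The response differed between genotypes in 23 of the 28, against 17.7% of all genes. Of 27 genes of the TCA cycle and pyruvate entry, 0 passed in either direction at a median of -0.09, against -1.17 in WT, and 23 differed in response. Of 22 genes of branched-chain amino acid catabolism, 0 passed at a median of -0.08, against -1.19 in WT, and 18 differed. With all 12 libraries, no member of these 3 lists passed an adjusted p of 0.05 in KO in edgeR or in DESeq2.

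Among 24 genes of insulin signalling, 2 were lower and 0 higher past the study thresholds. Irs1, which links the insulin receptor to PI3 kinase, was at 106, 121 and 110.3 CPM in KO-NCD and 67.0, 61.0 and 38.8 CPM in KO-HFD. Pik3r1, a regulatory subunit of that kinase, was at 89.3, 213 and 125 CPM and at 67.6, 76.7 and 38.2 CPM. Neither overlapped, and the changes of -1.02 and -1.23 were close to those in WT (-1.31 and -1.7, interaction adjusted p = 0.567 and 0.637). Igf1, the insulin-like growth factor, was at 294, 363 and 277 CPM and at 198, 165 and 179.6 CPM, with a change of -0.79 (adjusted p = 0.121). Further genes lower without overlap and among those of smallest p were the zinc finger gene Zfp949 (72.3 to 96.8 CPM against 47.5 to 52.9 CPM), Nmnat3, an enzyme of NAD synthesis (16.1 to 17.2 CPM against 8.79 to 9.81 CPM), Hpca, a neuronal calcium sensor (6.23 to 11.8 CPM against 0.646 to 2.21 CPM), the adaptor Traf4 (21.9 to 25.0 CPM against 13.3 to 14.6 CPM) and Strip2 (20.6 to 29.5 CPM against 7.56 to 13.4 CPM). Their adjusted p ran from 0.0673 to 0.169.

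Clock genes were lower in part. Of 20 tested, 5 were lower and 0 higher past the study thresholds, against 1.44% and 2.74% of all genes, 10 did not overlap with HFD below, against 8.95%, and the median was -0.39 in KO and -0.84 in WT. The time of day of tissue collection was not given in the sources used here. The core clock pair CLOCK and BMAL1 binds the E-box CACGTG, and several of its targets in turn repress it. Ciart, such a repressor, was at 11.9, 15.6 and 7.6 CPM in KO-NCD and 2.83, 3.29 and 3.81 CPM in KO-HFD. All HFD libraries were below all chow libraries, with a log2 change of -1.82 ± 0.29 (SE, adjusted p = 0.0947), and -1.32 in WT (interaction adjusted p = 0.427). Bhlhe41, an E-box binding repressor, was at 36.0, 66.3 and 40.6 CPM and at 21.5, 26.2 and 25.5 CPM. Its relative Bhlhe40 was at 105, 203 and 102 CPM and at 61.4, 64.3 and 85.7 CPM. Nr1d1, which encodes the repressor REV-ERB alpha, ran from 229.8 to 241 CPM and from 139 to 192 CPM. The groups did not overlap in any of these 4 genes, and none of the 4 passed the interaction test. Without the number 2 libraries, 3 of the 20 genes were lower past the study thresholds, at a median of -0.44.

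The promoters of Ciart and Bhlhe41, as the clock genes of the smallest p with an entry in the table, and of Ppp1r3c, the gene that fell, are shown because each holds that E-box. They run from 250 bases before to 50 bases after the start in RefSeq (GRCm38.p6), 5′ to 3′ on the gene's strand, with CACGTG in capitals. CACGTG reads the same on both strands. It is in 7.15% of all 32851 promoters of this length in the table. Counted by gene, it is in 8.09% of all genes with an entry, in 10.9% of the 12783 tested genes with one, and in 5 of the 17 such clock genes (29.4%). In Ciart it begins 116, 58 and 44 bases before the start, in Bhlhe41 153 bases and in Ppp1r3c 104 bases before it. A match is a description of these letters only. The promoters are at chr3:95882179-95882478 (Ciart), chr6:145865371-145865670 (Bhlhe41) and chr19:36736555-36736854 (Ppp1r3c), all on the minus strand.
Ciart: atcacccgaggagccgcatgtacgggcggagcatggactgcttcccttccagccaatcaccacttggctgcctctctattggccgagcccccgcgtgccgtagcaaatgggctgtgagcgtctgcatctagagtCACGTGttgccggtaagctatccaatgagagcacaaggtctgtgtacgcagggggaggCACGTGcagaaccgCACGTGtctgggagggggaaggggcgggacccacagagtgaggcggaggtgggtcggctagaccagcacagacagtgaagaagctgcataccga
Bhlhe41: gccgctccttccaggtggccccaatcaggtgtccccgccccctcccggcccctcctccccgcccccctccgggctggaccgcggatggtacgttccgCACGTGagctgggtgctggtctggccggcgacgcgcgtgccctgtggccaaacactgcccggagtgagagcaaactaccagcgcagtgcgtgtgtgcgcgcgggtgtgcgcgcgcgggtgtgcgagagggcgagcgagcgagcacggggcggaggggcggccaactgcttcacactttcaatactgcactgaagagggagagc
Ppp1r3c: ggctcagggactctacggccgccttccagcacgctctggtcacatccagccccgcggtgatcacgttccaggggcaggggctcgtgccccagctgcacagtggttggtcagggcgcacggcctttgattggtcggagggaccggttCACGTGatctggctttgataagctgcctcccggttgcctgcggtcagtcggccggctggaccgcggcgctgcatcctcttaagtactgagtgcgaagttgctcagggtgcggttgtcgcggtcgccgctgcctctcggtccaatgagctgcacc

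No macrophage marker passed the study thresholds as higher in KO fat. Of 23 macrophage markers, 0 were higher and 2 lower past the study thresholds, 17 had a negative log2 change, and the median was -0.27 in KO and 1.77 in WT. The response differed between genotypes in 14, against 17.7% of all genes. Adgre1, which encodes F4/80, was at 125, 69.9 and 94.1 CPM in KO-NCD and 93.7, 60 and 98.2 CPM in KO-HFD. The groups overlapped, and the 95% interval of the log2 change (-0.88 to 0.48) did not reach the WT change of 2.68 (interaction adjusted p = 0.00372). Summed macrophage markers were 3249, 1753 and 2904 CPM in KO-NCD and 1865, 1639 and 3142 CPM in KO-HFD, against 1552 to 1679 CPM in WT-NCD and 4369 to 6450 CPM in WT-HFD. No marker of the list was at 0 in all KO libraries. The resident macrophage scavenger receptor Cd163 was at 34.3, 37.3 and 53.7 CPM and at 22.9, 17.9 and 15.9 CPM, without overlap (log2 change -1.14, adjusted p = 0.12). Timd4, also of resident macrophages, was at 32.1, 9.52 and 19.1 CPM and at 14.6, 8.18 and 4.99 CPM, with overlap.

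Of 24 genes of lipid-associated macrophages, 1 was higher and 0 lower past the study thresholds, against 2.74% and 1.44% of all genes. With all 12 libraries, 0 passed an adjusted p of 0.05 in edgeR or DESeq2. The 1 higher gene was Fabp5, which other cells of fat also express. Fabp5 passed in DESeq2 on the KO libraries alone (adjusted p = 0.00521). A positive log2 change was fitted for 18 of the 24, against 48.1% of all genes, at a median of 0.33 (1.5 in WT). In 7 of the 24 the KO groups did not overlap with HFD above and in 0 with HFD below, against 8.52% and 8.95%. Itgax, which encodes CD11c, was at 13.2, 11.2 and 13.5 CPM in KO-NCD and 19.3, 18.0 and 18.4 CPM in KO-HFD. All HFD libraries were above all chow libraries, but the fitted log2 change of 0.55 (95% interval -0.51 to 1.61) did not pass and was smaller than the 3.38 in WT (interaction adjusted p = 0.0195). The interval uses a spread shared with WT-HFD, where Itgax was at 199, 41.8 and 50.3 CPM. In 1 of 21 alternative settings, DESeq2 on the KO libraries alone, Itgax passed an adjusted p of 0.05 in KO (0.00463).

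Of 21 inflammatory cytokines and mediators, 0 passed the study thresholds in either direction, with a median of 0.20 in KO and 2.61 in WT. Ccl2, the main monocyte chemoattractant, was at 28.5, 7.23 and 15.4 CPM in KO-NCD and 43.9, 18.1 and 22.6 CPM in KO-HFD, with overlap and a log2 change of 0.73 (95% interval -0.43 to 1.89). Il1b was at 3.01, 0.464 and 1.32 CPM and at 1.91, 0.806 and 2.24 CPM, Il6 at 0.103 to 0.826 CPM and 0.274 to 1.22 CPM, and Il10 at 0.825 to 2.43 CPM and 0.686 to 1.54 CPM. For Il1b the interval of -2.47 to 2.63 was too wide to exclude a 4-fold change either way. Of 38 chemokines and receptors, 0 were higher and 2 lower, at a median of 0.13 (1.25 in WT). Each of the 2 rested on 1 chow library. Cxcl9 was at 693 CPM in KO-NCD 1 and 72.8 to 80.8 CPM in the other KO libraries, and its log2 change of -1.92 was -0.07 without KO-NCD 1. Ccl21a was at 70.5 CPM in KO-NCD 2 and at most 1.65 CPM in the others, and its change of -4.22 was 1.82 without KO-NCD 2. Of 29 interferon-stimulated genes, 0 passed, at a median of -0.17. Of 8 tested neutrophil markers, 0 passed, with a median of -0.18 against 5.86 in WT.

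Of 21 genes of the inflammasome and necroptosis, 1 was higher and 0 lower past the study thresholds, against 2.74% and 1.44% of all genes. The median was -0.12 in KO and 1.41 in WT. The response differed in 11 of the 21, against 17.7% of all genes. The sensor Nlrp3 was at 7.69, 2.24 and 2.94 CPM in KO-NCD and 4.25, 2.14 and 2.5 CPM in KO-HFD. Pycard, which encodes the adaptor ASC, was at 28.4, 7.21 and 13.5 CPM and at 13.4, 9.48 and 16.6 CPM. Casp1 (19.8 to 36.9 CPM against 21.5 to 37.9 CPM) and Ripk3, the necroptosis kinase (6.67 to 20.9 CPM against 10.1 to 14.4 CPM), overlapped too. Library KO-NCD 1 held the highest chow value of all 4 genes, and without it the log2 changes of Nlrp3 and Pycard were 0.20 and 0.35 in place of -0.53 and -0.31. The ATP-gated channel genes P2rx7 (31.4 to 41.7 CPM against 28.5 to 34.6 CPM) and P2rx4 (61.3 to 115 CPM against 73.2 to 82.5 CPM) also overlapped. Their 95% intervals of -0.69 to 0.11 and -0.63 to 0.25 did not reach the WT changes of 1.25 and 1.36 (interaction adjusted p = 0.00501 and 0.00653). The genotypes also differed on chow, since WT-NCD, at 18.5 to 21.8 CPM for P2rx7 and 49.6 to 57.9 CPM for P2rx4, lay below every KO-NCD library. In WT-HFD they were at 33.4 to 54.4 and 114 to 158 CPM. Of 25 purinergic receptors and ectonucleotidases, 1 was higher and 1 lower past the study thresholds.

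Gja1 itself was at 48.9, 149.8 and 67.1 CPM in KO-NCD and 67.2, 96.8 and 65.7 CPM in KO-HFD, and both number 2 libraries were the highest of their group. The log2 change was -0.21 (95% interval -0.94 to 0.52). Whole fat holds many Gja1-expressing cells other than macrophages, so these levels do not test the deletion. Of 13 tested connexins and pannexins, 1 was higher past the study thresholds. That gene was Panx1, a channel that also releases ATP, at 5.32, 5.67 and 4.67 CPM in KO-NCD and 8.33, 7.01 and 8.82 CPM in KO-HFD. The groups did not overlap, and the change of 0.62 (adjusted p = 0.274) was smaller than the 1.64 in WT (interaction adjusted p = 0.019).

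**Figure D4:**
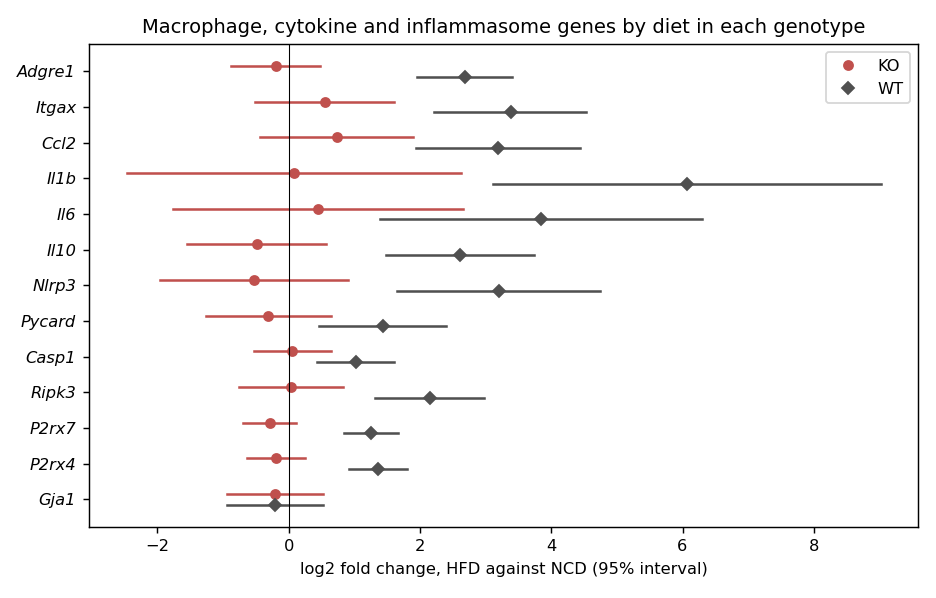
Log2 fold change, HFD against NCD (x axis), with its 95% interval, of 13 macrophage, cytokine, inflammasome, purinergic and connexin genes in KO (red circles) and WT (grey diamonds). All 13 KO intervals include 0, and the WT interval lies above 0 for each gene except Gja1.

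**Figure D5:**
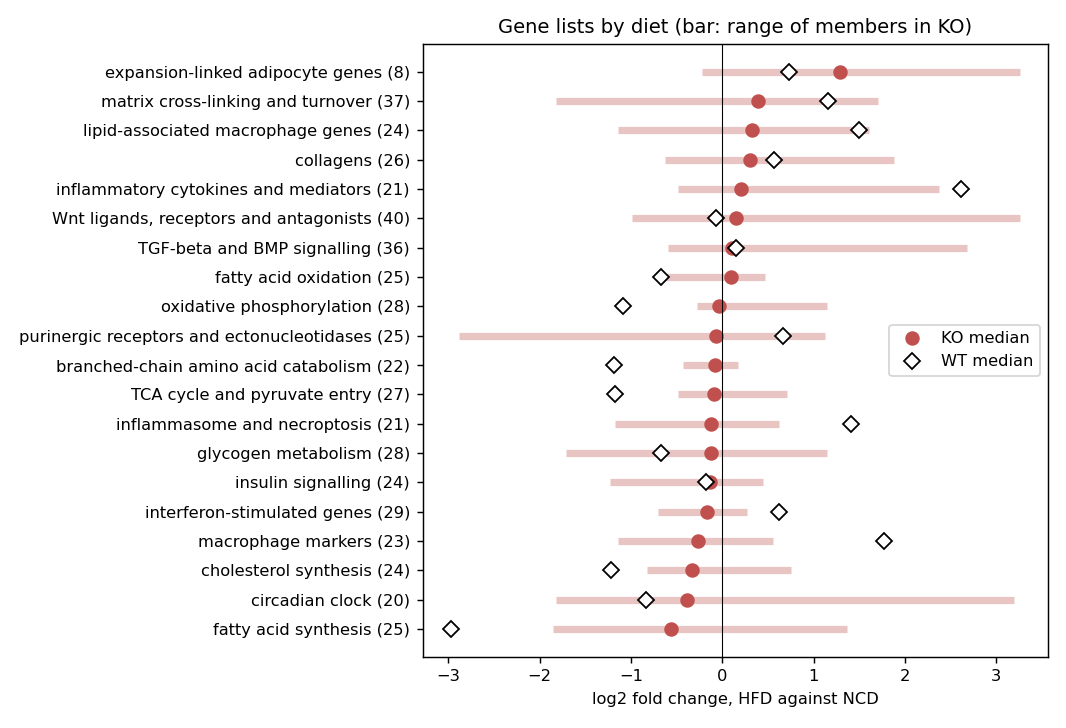
Median log2 fold change, HFD against NCD, of 20 gene lists in KO (red circles) and WT (open diamonds), with the range of the members in KO (bars) and the number of genes tested in brackets. KO medians run from -0.56 for fatty acid synthesis to 1.29 for expansion-linked adipocyte genes, while WT medians run from -2.97 for fatty acid synthesis to 2.61 for inflammatory cytokines.

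Markers of other cells moved with diet in part of the libraries. Of 12 tested B cell markers, 2 (Blk and Jchain) were higher past the study thresholds. All 12 had a positive log2 change (median 1.19), but their sum was 376 CPM in KO-HFD 3 against 58.2 and 95.1 CPM in KO-HFD 1 and 2 and 40.5 to 91.8 CPM in KO-NCD. All 14 mesothelial markers were positive as well (median 0.83), with sums of 178, 373 and 641 CPM in KO-NCD and 1134, 369 and 564 CPM in KO-HFD, and 0 passed the study thresholds. Of 13 mast cell and eosinophil markers, 0 passed, at a median of 1.17. Seminal vesicle genes were at most 16.8 CPM in sum in any KO library and epididymal genes at most 0.732 CPM, so the 6 seminal vesicle genes past the study thresholds as higher in KO-HFD were far below their WT-NCD levels. Of 22 immediate early genes, which respond to handling and other acute stimuli, 3 were higher past the study thresholds, against 2.74% of all genes. Their median was 0.34. Egr1 was at 32.0, 22.2 and 37.7 CPM in KO-NCD and 80.7, 43.5 and 117 CPM in KO-HFD, without overlap, and Fos at 6.53 to 29.3 CPM and 16.5 to 94.9 CPM, with overlap. The part of these cells and signals in the other results was not tested.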

How the data were processed

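RNA from gWAT of 12 mice, 3 in each of 4 groups, was sequenced from TruSeq libraries. Per the labels, the authors converted base calls with bcl2fastq 2.20.0, trimmed reads with Trimmomatic, aligned them to mm10 with HISAT2 2.1.0 and counted genes with StringTie 1.3.4d. The deposited values are raw counts of 19792 Entrez IDs, of which 19745 matched a RefSeq symbol (GRCm38.p6). Whether counting used strand is not given in the sources used here, so overlapping genes may share reads. Counts were TMM normalized and fitted in edgeR 4.0.16 (R 4.3.3) with 4 group means, 8 residual degrees of freedom and a dispersion of 0.115, over 16352 genes kept by filterByExpr (minimum count 10). KO-HFD was compared with KO-NCD by the quasi-likelihood test, with Benjamini-Hochberg adjusted p over all genes. WT and the interaction came from the same fit, which was tested on simulated data. Alternatives were DESeq2 1.42.0, other filters, the KO libraries alone, a replicate block, both number 2 KO libraries left out and each library left out. Same-numbered KO libraries deviated together (correlations 0.468, 0.699 and 0.195), from which the numbers were taken to pair them, since no label states a shared litter or batch. The correlation for number 3 was close to that of the unlike-numbered KO-NCD 1 and KO-HFD 3 (0.182). Genes were named if called, if among the 12 of smallest p per direction without overlap, if among the 4 of smallest unadjusted p under 0.05 in a list or its most abundant member, or if named by the study; some genes these rules pick are not reported here. The 60 lists and these rules were chosen with earlier results of these data known.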

Additional observations from a re-analysis of the deposited data

Results flagged for a closer look

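The genes below are those named in the report whose response to HFD differed between KO and WT at an interaction adjusted p under 0.05 (edgeR, 3 libraries per group). Values are the log2 diet change in KO minus that in WT.

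Among genes higher on HFD in KO, the difference was positive for Ret (1.55), Pmepa1 (2.76), Smad7 (0.61) and Mogat2 (2.67). It was negative for Sfrp5 (-3.35), Ccn5 (-2.54), Bmp3 (-1.52), Fbln5 (-0.8), Col16a1 (-1.02), Thbs2 (-1.85), Bgn (-1.0) and Panx1 (-1.02), which had larger increases in WT.

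Among metabolic genes, differences were positive for Acly (2.65), Acaca (2.81), Elovl6 (2.81), Aacs (2.09), Srebf1 (1.7), Angptl8 (3.26), Idi1 (1.02), Nsdhl (1.52), Gbe1 (2.13) and Gys1 (1.36), all lower on HFD in both genotypes and more so in WT. Scd1 (3.25) was lower in WT only, with no detectable fall in KO. Traf4 (1.03) was also lower in both, and Zfp949 (-0.62) was lower mainly in KO. On either diet Zfp949 was at 12.9 to 15.4 CPM in WT, below every KO library.

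Among macrophage, cytokine, inflammasome and purinergic genes, all differences past the threshold were negative, for Adgre1 (-2.88), Itgax (-2.82), Ccl2 (-2.46), Il1b (-5.99), Il10 (-3.09), Nlrp3 (-3.73), Ripk3 (-2.11), P2rx7 (-1.54) and P2rx4 (-1.55). Some of these WT responses were uneven between libraries. In WT-HFD 1, 2 and 4, Il1b was at 1.21, 74.4 and 154 CPM, Nlrp3 at 4.0, 15.5 and 30.9 CPM and Itgax at 199, 41.8 and 50.3 CPM. In WT-NCD, Il1b was at 0.983 to 1.37 CPM, so WT-HFD 1 lay within its chow range.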

How the results depend on the processing

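The count of 5 genes called in KO was 5 with DESeq2 size factors and 6 with a CPM minimum of 1 in 3 libraries, but 316 with DESeq2's Wald test (445 in the KO libraries alone), 3 with no filter on low counts, and 0 in edgeR on the KO libraries alone. With a replicate block the count was 12 in all 12 libraries and 0 in the KO libraries alone (2166 at an unadjusted p under 0.05). It was 5 without both number 2 KO libraries (3 shared: Ret, Unc79 and Ppp1r3c), and 0 to 36 with 1 library left out. Of the 5 genes, 3 were also called with the block in all 12 libraries. The count past the study thresholds stayed within 1.5 times of 684, from 583 to 926 under these settings and from 596 to 989 with 1 library left out, but without both number 2 libraries 484 of the 684 were shared. The WT count (4626 to 5803) stayed within 1.5 times when 1 library was left out, and that of the interaction ran from 1740 to 3055.

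Most named genes kept their direction. Without both number 2 libraries, Gja1 was 0.20, Ripk3 -0.12, Il1b -0.05 and Ccl21a 1.59, signs opposite to the full comparison. With 1 library left out, the lowest and highest log2 changes were -0.40 and 0.04 for P2rx4, -0.88 and 0.20 for Nlrp3, -0.67 and 0.35 for Pycard, -0.38 and 0.04 for Adgre1, -0.50 and 0.40 for Gja1, -0.10 and 0.89 for Il6, -0.16 and 0.28 for Casp1, -0.27 and 0.62 for Ripk3, -0.38 and 0.90 for Il1b and -4.8 and 1.82 for Ccl21a. The cause of these shifts was not tested. Calls rest on 8 residual degrees of freedom and 3 libraries per group. The 95% interval, which reached 0.448 to either side of the median gene, is not corrected for the number of genes. At an adjusted p under 0.05 the smallest log2 change called was 1.65 (Prelp), and Ccn5 at 2.87 was not called. A gene that was not called may still have changed.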

Other observations

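The 21 gene lists not described above, from glycolysis and lipid droplet proteins to ribosomal proteins and the cell cycle, held 336 tested entries, of which 16 were higher and 5 lower past the study thresholds and 0 passed an adjusted p of 0.05 in edgeR. Their medians ran from -0.78 (epididymal epithelium genes, 3 tested) to 0.86 (pancreas genes, 1 tested).

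Some genes switched between libraries of the same KO group, chosen after their values were seen. In 137 genes a library with at most 3 counts stood beside another of its group with at least 300. The highest KO library was number 2 of either diet in 131 of them, and KO-NCD 1 had at most 3 counts in 129. Many encode secreted liver proteins, such as Ttr, at 0, 32.8 and 2.79 CPM in KO-NCD and 8.34, 80.5 and 14.7 CPM in KO-HFD.

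Other switches followed single libraries. Klhdc7a was at 0 in KO-HFD 3 and at 213 to 342 CPM in the other 5. Hbb-bs, which encodes an adult beta globin, was at 5.59 CPM in KO-HFD 3 and 213 to 449 CPM in the other KO libraries, and at 9.45 CPM in WT-HFD 4. Eno1b was at 0.0809 and 0.0644 CPM in KO-NCD 1 and 2, 61.3 CPM in KO-NCD 3 and 62.6 to 85.1 CPM in KO-HFD, while all WT-HFD libraries were below 0.1 CPM and all WT-NCD libraries above 37 CPM. Gm20716 was at 0 in KO-HFD 1 and 3 and at 23.2 to 39.8 CPM in the other KO libraries. Hbb-bs, Eno1b and Gm20716 have close copies or overlap other loci, and how the counting treated shared reads is not given in the sources used here.

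The acute-phase genes Saa3 and Lcn2 were high in a chow library. Saa3 was at 402, 19.0 and 261 CPM in KO-NCD and 10.7, 7.73 and 78.6 CPM in KO-HFD, and Lcn2 at 466, 56.7 and 82.2 CPM and at 18.4, 33.7 and 14.2 CPM. Both were lower past the study thresholds, with log2 changes of -2.81 and -3.19 and an adjusted p of 0.472 and 0.349. The plasma cell gene Jchain was at 145 CPM in KO-HFD 3 and 4.53 to 41.3 CPM in the other KO libraries.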
